A study of Mus musculus with 6 samples.

Results

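The Ifi200 cluster is a row of related interferon-inducible genes on mouse chromosome 1 whose proteins carry a HIN domain. Its members here are 10 genes, Ifi203, Ifi204, Ifi205, Ifi206, Ifi207, Ifi208, Ifi209, Ifi211, Ifi213 and Ifi214, picked by their symbols out of the 54347 gene rows of the deposited table. The list was selected on the difference between Plcg2-/- and Plcg2+/+ libraries of this same table. The difference of each member between the genotypes is therefore given as a description, without a test, and nothing is supported by it. Transcripts were measured in 3 Plcg2-/- and 3 Plcg2+/+ libraries of cultured microglia, the macrophages that live in brain tissue. The mice were C57BL/6 littermates, and forebrains were taken at an age of 2 to 3 days. Mixed glia were grown first, and on day 12 to 13 the loose microglia were collected by shaking. Both genotypes were then kept for at least 72 h in medium with GM-CSF (0.5 ng/mL), which promotes growth of myeloid cells, and a low level of FBS (1%). Plcg2 encodes phospholipase C gamma 2, a signalling enzyme downstream of immune receptors. The sources used here do not say how the allele was made, and the labels do not say whether replicates were separate animals. P-values therefore measure only the spread between these libraries, which may be technical.

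The proteins are also called HIN-200 or PYHIN proteins. The HIN domain binds DNA, and most family members also carry a pyrin domain, through which they bind other pyrin proteins. Some members act as sensors of DNA in the cytosol or nucleus, and others have been tied to control of transcription and the cell cycle. Transcription of the family is induced by interferon, and the human relatives are IFI16, AIM2, MNDA and PYHIN1.

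Promoter sequences were available from RefSeq (GRCm38.p6) for 9 of the 10 members, as 250 bases before to 50 bases after the annotated start. They are shown because the interferon-stimulated response element, the DNA site of the interferon-activated transcription factor ISGF3, bears on a cluster defined by interferon induction. Its core was searched on both strands as TTTC, any 2 bases, then TTTC, which reads GAAA, any 2 bases, GAAA on the other strand. The core was found in at least 1 promoter entry of 8 of the 9 members, against 3.99% of the 27025 genes with a promoter entry and 3.44% of all 32851 promoter entries. Several of the members' promoters resemble each other closely, as the windows below show, so counts over members are not counts of independent genes. A match describes letters and does not show that a protein binds there. The 40-base windows below are in transcript direction, 5′ to 3′, and capitals mark the 10-base core or, in Ifi209, its closest approach.
Ifi203 (chr1:173942503-173942542, minus strand): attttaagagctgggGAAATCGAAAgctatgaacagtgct
Ifi205 (chr1:174031865-174031904, minus strand): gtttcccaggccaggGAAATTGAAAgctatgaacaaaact
Ifi206 (chr1:173491334-173491373, minus strand): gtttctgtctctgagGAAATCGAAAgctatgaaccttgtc
Ifi207 (chr1:173741826-173741865, minus strand): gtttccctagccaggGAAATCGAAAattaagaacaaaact
Ifi208 (chr1:173673592-173673631, plus strand): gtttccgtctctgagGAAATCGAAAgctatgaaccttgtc
Ifi209 (chr1:173630765-173630804, plus strand): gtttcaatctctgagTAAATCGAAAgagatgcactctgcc
Ifi211 (chr1:173913059-173913098, minus strand): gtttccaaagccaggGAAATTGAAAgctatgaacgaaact
Ifi213 (chr1:173599321-173599360, minus strand): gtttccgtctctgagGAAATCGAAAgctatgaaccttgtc
Ifi214 (chr1:173536012-173536051, minus strand): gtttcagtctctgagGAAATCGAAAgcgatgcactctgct

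Counted from the 5′ end of the capitals, Ifi209 departs from the core at a single position, written G1T. That result says only that the exact core is not in this window of Ifi209. Ifi203 has 2 promoter entries, and the one at chr1:173942623-173942922 held no exact core, its closest window departing at 2 positions. The core began 35 to 79 bases upstream of the RefSeq start in 7 of the members that hold it. In Ifi205 it began 134 bases upstream of that start, and a second copy lay in the opposite orientation 24 bases into the transcript. These distances hold for RefSeq starts only, since the gene positions given below are from GENCODE and some differ. By the GENCODE 5′ ends, the core of Ifi205 lies nearer the start. Those of Ifi206 and Ifi207, and the closest approach in Ifi209, lie farther from it, and that of Ifi208 slightly farther. The core shown for Ifi203 then lies inside the gene. The windows of Ifi208 and Ifi213 were the same over all 40 bases. GAGGAA, the core bound by the myeloid factor PU.1, occurred in 4 of the 9 promoters, those of Ifi206, Ifi208, Ifi213 and Ifi214, where it overlaps the first bases of the interferon core. That compares with 31.3% of genes. The gamma activation site, TTCNNNGAA, a site of the response to interferon gamma, occurred in 0 of the 9 members and in 9.55% of genes. That count says only that these letters are absent from these windows.

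The promoters of the members with the largest and the smallest difference between genotypes are printed whole, each 300 bases, with the interferon core in capitals.
Ifi205 (chr1:174031706-174032005, minus strand): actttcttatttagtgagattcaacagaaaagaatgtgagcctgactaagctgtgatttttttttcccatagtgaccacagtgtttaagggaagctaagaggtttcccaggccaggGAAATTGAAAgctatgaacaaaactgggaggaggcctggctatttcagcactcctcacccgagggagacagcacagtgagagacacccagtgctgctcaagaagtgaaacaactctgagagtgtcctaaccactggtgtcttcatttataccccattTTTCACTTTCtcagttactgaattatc
Ifi207 (chr1:173741760-173742059, minus strand): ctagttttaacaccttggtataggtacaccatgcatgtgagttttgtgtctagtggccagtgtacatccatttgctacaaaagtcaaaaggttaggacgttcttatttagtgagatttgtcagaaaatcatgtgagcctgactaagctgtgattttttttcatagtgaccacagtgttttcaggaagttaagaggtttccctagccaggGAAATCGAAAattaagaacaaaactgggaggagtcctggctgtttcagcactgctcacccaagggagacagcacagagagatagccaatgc

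All values are TPM, a measure of transcript abundance scaled to length and to the library, so levels can be set beside each other between genes of 1 library. TPM has the same sum in every library, so the depth behind a value is unknown. Plcg2 itself had 16.05, 16.7 and 16.07 TPM in Plcg2-/- libraries, against 45.19, 39.7 and 54.85 TPM in Plcg2+/+ libraries (limma adjusted p = 0.00141, lower in 3 of 3). Mitochondrially encoded transcripts took 5.00, 8.23 and 8.68% of TPM in Plcg2-/- libraries and 15.6, 17.3 and 13.6% in Plcg2+/+ libraries, and their part in the results was not tested. The 10 microglial markers on the list summed to 3920 to 4560 TPM in Plcg2-/- and 3890 to 4360 TPM in Plcg2+/+ libraries. Of the 8 that could be tested, P2ry12, Aif1 and Fcrls were called higher and Cx3cr1 and Itgam lower in Plcg2-/-, and Sall1, a defining marker of microglia in the brain, was under 1 TPM in every library. Astrocyte markers summed to 39.6 to 57.3 TPM in Plcg2-/- and 29.5 to 58.9 TPM in Plcg2+/+. Of the 3 that could be tested, Aldh1l1 was called higher in Plcg2-/-, and Gfap and Aldoc were not called. Oligodendrocyte lineage markers summed to 47.6 to 84.9 TPM in Plcg2-/- and 50.1 to 116 TPM in Plcg2+/+. Of the 5 that could be tested, Cspg4 alone was called, lower in Plcg2-/-. Neuronal and fibroblast or vascular markers stayed under 10 TPM in sum in every library, and lymphoid markers under 1 TPM, with Cd3e and Cd3g at 0. The part of these markers in the results was not tested. The libraries are bulk RNA, so fewer cells of a type and less RNA per cell cannot be told apart.

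Together the 10 members made up 1702, 1249 and 1292 TPM in Plcg2-/- libraries, against 319.8, 216.8 and 256.6 TPM in Plcg2+/+ libraries. The lowest Plcg2-/- sum was more than 3 times the highest Plcg2+/+ sum, and the ratio of the means was 5.35. All 10 members had every Plcg2-/- value above every Plcg2+/+ value, which also held for 32.4% of the 12652 genes tested. All 10 were called higher by limma at an adjusted p below 0.05, as were 15.6% of genes tested. Both counts follow from the way the list was made, and nothing is read from them. The median log2 fold change of the members, taken on log2(TPM + 1) as Plcg2-/- over Plcg2+/+, was 2.78, against 0.19 over all genes tested, whose 10th and 90th percentiles were -0.47 and 0.75. With median-of-ratios scaling, which brings the median of all genes to -0.0045, the members' median was 2.57. The list was given by name and has no threshold, and its member with the smallest fold change is Ifi207 and the largest Ifi205.

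**Figure D1:**
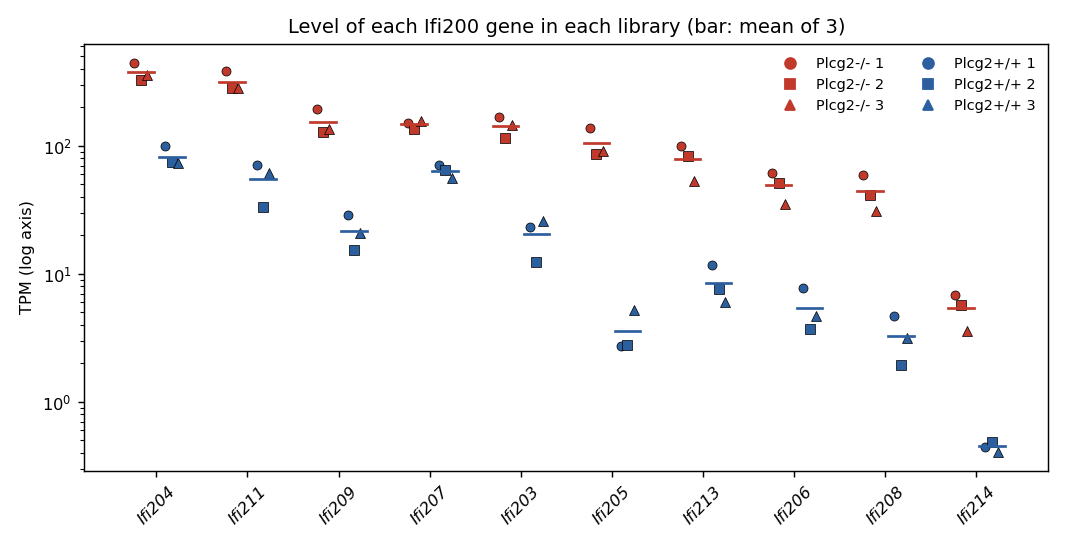
Level of each Ifi200 member in every library, in TPM on a log axis, with Plcg2-/- libraries left of Plcg2+/+ libraries for each gene; points are libraries and short lines are means of 3. The groups do not overlap for any member, and the gap is widest for Ifi205, with means of 105 and 3.57 TPM.

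Ifi204 encodes p204, a protein that shuttles between nucleus and cytoplasm, takes part in DNA sensing through STING and binds the retinoblastoma protein. Its gene lies at chr1:173747293-173766943 on the minus strand. Ifi204 had 439.9, 323.4 and 360 TPM in Plcg2-/- libraries, against 99.67, 74.44 and 73 TPM in Plcg2+/+ libraries. It was the most abundant member in both genotypes, and its log2 fold change was 2.17 ± 0.17 (SE). Ifi211, at chr1:173896345-173913046 on the minus strand, had 384.2, 280.5 and 285 TPM in Plcg2-/- libraries and 70.11, 33.48 and 61.68 TPM in Plcg2+/+ libraries. In Plcg2-/- libraries its range overlapped that of Ifi204, whereas in Plcg2+/+ libraries all Ifi211 values lay below those of Ifi204. The log2 fold change of Ifi211 was 2.55 ± 0.28 (SE).

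Ifi205, whose product p205 has been tied in mouse cells to the level of the inflammasome adaptor ASC and to fat cell differentiation, lies at chr1:174011998-174031810 on the minus strand. It had 137.5, 85.77 and 90.29 TPM in Plcg2-/- libraries, against 2.708, 2.771 and 5.221 TPM in Plcg2+/+ libraries. The means were 105 ± 28.6 and 3.57 ± 1.43 TPM (SD, n = 3 each), a ratio of 29.3 and a log2 fold change of 4.54 ± 0.26 (SE). By mean TPM it ranked 6 among the 10 members in Plcg2-/- libraries and 8 in Plcg2+/+ libraries. Ifi205 and Ifi211 share much of their sequence. Of the 31-base words in the longest coding transcript of Ifi205 in GENCODE M21, 54.1% also occur in Ifi211, and 48.8% of those of Ifi211 occur in Ifi205. Windows of 150 bases, the read length, held at least 1 word found in no other gene in 61.9% of positions in Ifi205 and 51.5% in Ifi211. The division of TPM between these genes is therefore uncertain, and how reads were shared was not tested. Their sum was 421 ± 87.2 TPM in Plcg2-/- libraries and 58.7 ± 19.6 TPM in Plcg2+/+ libraries (SD, n = 3 each), a ratio of 7.18. Ifi211 also shares 38.8% of its words with Ifi204, and Ifi204 shares 29.5% of its words with Ifi211. The levels of Ifi204 are therefore uncertain too, though 89.2% of its 150-base windows held a word found in no other gene. Ifi204, Ifi205, Ifi211 and Mndal, a gene whose annotated interval spans Ifi211, were also summed. They gave 1229, 876.1 and 943.7 TPM in Plcg2-/- libraries, against 217.8, 139.3 and 185.1 TPM in Plcg2+/+ libraries, a ratio of 5.62.

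Ifi209, at chr1:173630917-173647928 on the plus strand, had 194.6, 127.1 and 134.7 TPM in Plcg2-/- libraries, against 28.87, 15.23 and 20.98 TPM in Plcg2+/+ libraries. Its log2 fold change of 2.77 ± 0.26 (SE) was close to the members' median. Ifi214, at chr1:173519717-173535957 on the minus strand, shares 47.4% of its 31-base words with Ifi209. Ifi214 had 6.819, 5.69 and 3.581 TPM in Plcg2-/- libraries and 0.4458, 0.4882 and 0.407 TPM in Plcg2+/+ libraries. It was the lowest member in both genotypes and the only one under 1 TPM in every Plcg2+/+ library, so it passed the filter of a mean of 1 TPM through its Plcg2-/- values alone. Its log2 fold change of 2.10 ± 0.24 (SE) understates the 12.0-fold ratio of its means, since 1 TPM was added before taking logs. With 0.1 TPM added, the log2 fold change was 3.27. Ifi209 and Ifi214 summed gave 158 ± 38.1 TPM in Plcg2-/- and 22.1 ± 6.83 TPM in Plcg2+/+ libraries (SD, n = 3 each), a ratio of 7.11.

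Ifi206, Ifi208 and Ifi213 form the third group of similar sequence, a grouping made after the shared words were seen. They also share the PU.1 core that overlaps the interferon core, as does Ifi214. Ifi213, at chr1:173566283-173599274 on the minus strand, had 99.98, 82.42 and 53.1 TPM in Plcg2-/- libraries, against 11.61, 7.588 and 5.986 TPM in Plcg2+/+ libraries. Ifi206, at chr1:173468485-173491041 on the minus strand, had 61.44, 51.24 and 35.25 TPM in Plcg2-/- libraries, against 7.802, 3.671 and 4.691 TPM in Plcg2+/+ libraries. Ifi208, at chr1:173673675-173698395 on the plus strand, had 59.59, 41.49 and 31.02 TPM in Plcg2-/- libraries, against 4.676, 1.935 and 3.148 TPM in Plcg2+/+ libraries. In all 3 genes the groups stayed apart, and the highest Plcg2-/- value was replicate 1 and the lowest replicate 3, as in Ifi214. Their log2 fold changes were 3.08 ± 0.29, 2.99 ± 0.29 and 3.41 ± 0.31 (SE) for Ifi213, Ifi206 and Ifi208. Ifi208 shares 36.8% of its 31-base words with Ifi213, whereas Ifi206 shares 15.3% of its words with Ifi213 and 14.7% with Ifi208. Summed, the 3 genes gave 172 ± 50.9 TPM in Plcg2-/- and 17 ± 6.12 TPM in Plcg2+/+ libraries (SD, n = 3 each), a ratio of 10.1.

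Ifi203 encodes the nuclear protein p203 and lies at chr1:173920407-173942672 on the minus strand. It had 168.3, 114.8 and 144.3 TPM in Plcg2-/- libraries, against 23.2, 12.36 and 26.01 TPM in Plcg2+/+ libraries. The groups stayed apart by a wide margin, with a log2 fold change of 2.78 ± 0.28 (SE). Ifi207, at chr1:173723427-173741747 on the minus strand, had 150.1, 136.3 and 154.7 TPM in Plcg2-/- libraries, against 70.72, 64.81 and 55.5 TPM in Plcg2+/+ libraries. It had the smallest difference of the 10, a log2 fold change of 1.20 ± 0.12 (SE) and 0.99 with median-of-ratios scaling. Its sequence is the most distinct of the members, since 85.4% of its 31-base words are found in no other gene and 100% of its 150-base windows hold such a word. Ifi203 follows with 78.9% of words, and the lowest value was 20.8% in Ifi211.

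**Figure D2:**
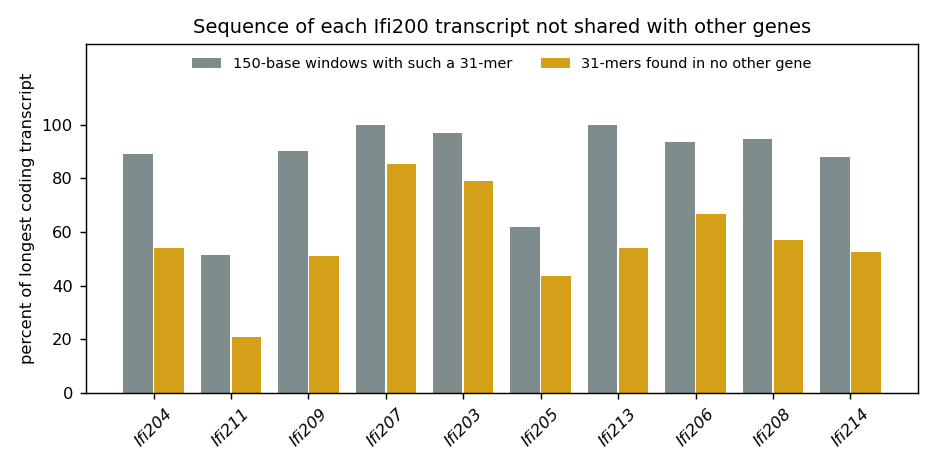
Bars give, for the longest coding transcript of each member, the percent of 150-base windows that hold a 31-base word found in no other gene and the percent of such words. By words Ifi211 is lowest at 20.8% and Ifi207 highest at 85.4%, and Ifi205 stands at 43.5%.

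The make-up of the cluster differed in part between the genotypes. As a share of the members' summed TPM, Ifi207 made up 10.6 ± 1.61% in Plcg2-/- and 24.5 ± 4.64% in Plcg2+/+ libraries (SD, n = 3 each). Ifi205 made up 7.31 ± 0.665% in Plcg2-/- and 1.39 ± 0.601% in Plcg2+/+ libraries. These shares put in 1 library's terms what the fold changes show, that Ifi207 differed least and Ifi205 most. Ifi204 held 26.5 ± 1.15% and 31.3 ± 2.95%, and Ifi211 22.4 ± 0.268% and 20.5 ± 4.48%, in Plcg2-/- and Plcg2+/+ libraries. The values of Ifi211 overlapped between the genotypes, whereas each Plcg2-/- share of Ifi204 lay below each Plcg2+/+ share. By mean TPM the order in Plcg2-/- libraries was Ifi204, Ifi211, Ifi209, Ifi207, Ifi203, Ifi205, Ifi213, Ifi206, Ifi208 and Ifi214. Among neighbours in that order, the values of Ifi211 and Ifi209 and of Ifi208 and Ifi214 did not overlap, and all other neighbours overlapped. In Plcg2+/+ libraries the order was Ifi204, Ifi207, Ifi211, Ifi209, Ifi203, Ifi213, Ifi206, Ifi205, Ifi208 and Ifi214. There the neighbours without overlap were Ifi204 and Ifi207, Ifi211 and Ifi209, Ifi203 and Ifi213, and Ifi208 and Ifi214.

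**Figure D3:**
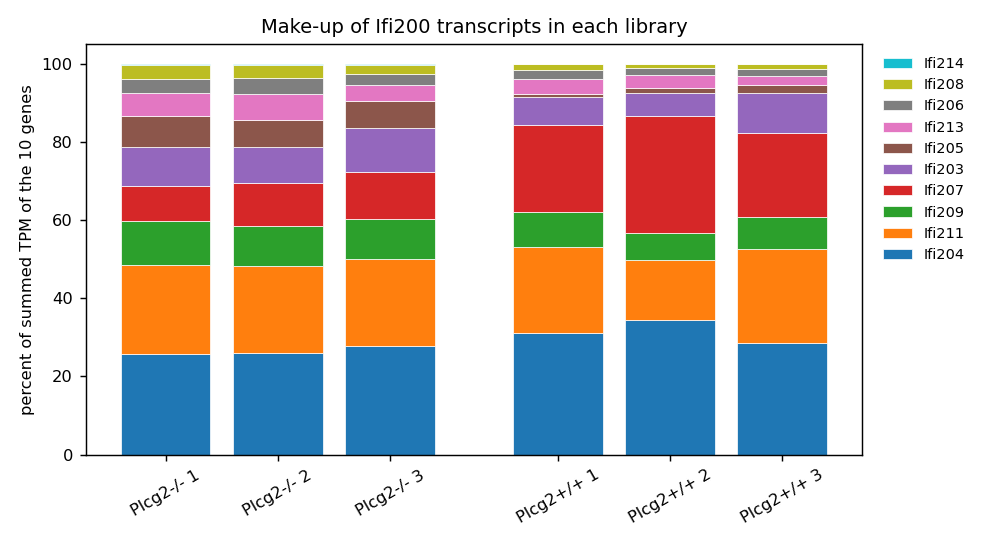
Stacked columns give the percent of the summed TPM of the 10 members taken by each member, 1 column per library, with the 3 Plcg2-/- libraries left of the 3 Plcg2+/+ libraries. Ifi207 takes a mean of 10.6% in Plcg2-/- and 24.5% in Plcg2+/+ libraries, and Ifi205 takes 7.31% and 1.39%.

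Among the Plcg2-/- libraries, replicate 1 had the highest value of 9 members, and Ifi207 was the exception, highest in replicate 3. The lowest Plcg2-/- value fell in replicate 2 for 6 members and in replicate 3 for 4. Among the Plcg2+/+ libraries, replicate 1 was highest for 7 members and replicate 2 lowest for 5. Differences taken within libraries of the same number were positive for every member in every pair. For Ifi205 they were 5.22, 4.52 and 3.88 on the log2(TPM + 1) scale for numbers 1, 2 and 3, and for Ifi207 they were 1.08, 1.06 and 1.46.

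The members lie within 680.9 kb of chromosome 1, from the start of Aim2 to the end of Ifi205 (chr1:173350879-174031810, GRCm38, GENCODE M21), with 8 on the minus strand and 2 on the plus strand. The interval holds 21 annotated genes, 13 of them protein coding. A list of other genes of the locus, written with earlier results of these data known, held 4 genes found in the table, of which 3 could be tested. Of these, 2 rose and 0 fell in Plcg2-/- libraries by limma, against 15.6% and 5.31% of all genes tested, and 0 were lower at an unadjusted p below 0.05. Their median log2 fold change was 2.09. Mndal, a HIN-domain gene at chr1:173849126-173942491 that is not among the 10 members, had 267.4, 186.4 and 208.4 TPM in Plcg2-/- libraries, against 45.32, 28.59 and 45.15 TPM in Plcg2+/+ libraries. It rose with a log2 fold change of 2.46 ± 0.22 (SE, limma adjusted p = 0.00123, higher in 3 of 3 Plcg2-/- libraries). The pseudogene Ifi203-ps had 6.644, 6.929 and 4.743 TPM in Plcg2-/- libraries, against 0.9513, 0.7451 and 0.3261 TPM in Plcg2+/+ libraries. It also rose (log2 fold change 2.09 ± 0.23, limma adjusted p = 0.00199), and 42.9% of its 31-base words occur in Ifi203. Mndal shares 21.9% of its words with Ifi211, and its annotated interval spans all of Ifi211 and most of Ifi203 on the same strand. The division of reads is therefore uncertain for Mndal and Ifi203-ps too, though less of their sequence is indistinct than in Ifi205 and Ifi211. Windows of 150 bases held a word found in no other gene in 97.7% of positions in Mndal and 96.3% in Ifi203-ps.

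Aim2 encodes the DNA sensor that assembles an inflammasome with ASC, and it is the first gene of the interval. Aim2 had 92.59, 96.38 and 96.7 TPM in Plcg2-/- libraries, against 82.82, 80.72 and 86.76 TPM in Plcg2+/+ libraries. The values did not overlap, but the log2 fold change of 0.19, with a 95% interval of -0.03 to 0.41, equalled the median of all genes and did not pass the test (limma adjusted p = 0.185). With median-of-ratios scaling it was -0.02. Of its 31-base words, 93.4% were found in no other gene. Its closest promoter window read as GAAA, any 2 bases, GAAA departed from the interferon core at 3 positions, as did that of Ifi202b. In the opposite orientation, TTTC, any 2 bases, TTTC, both promoters held a stretch departing at a single position. That is as near to the core as the window of Ifi209. Mndal, which is not a member, held the exact core in a 40-base window the same as that of Ifi203. The part of these letters in the levels was not tested. Ifi202b, which encodes a HIN protein without a pyrin domain that restrains Aim2, was at most 0.0489 TPM in any library and was not tested. Gm18752, a pseudogene of the interval named after its values were seen, had 4.422, 3.846 and 2.299 TPM in Plcg2-/- libraries and 1.308, 0.2881 and 0 TPM in Plcg2+/+ libraries (limma adjusted p = 0.0234). The nearest 10 protein-coding genes on each side of the interval, mostly olfactory receptor genes, averaged under 1 TPM, and 0 of them could be tested.

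**Figure D4:**
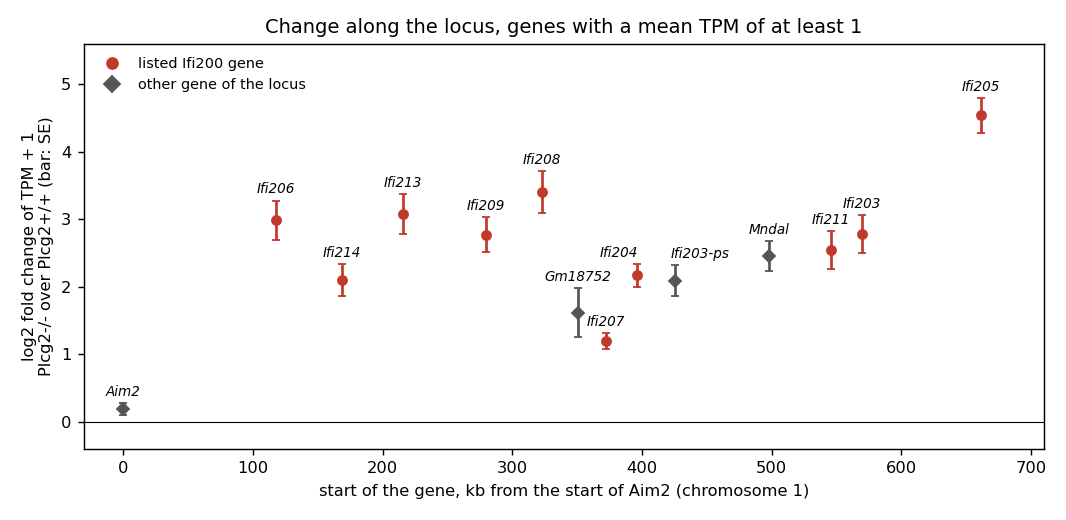
Log2 fold change of TPM + 1, Plcg2-/- over Plcg2+/+, of each tested gene of the interval against its distance in kb from the start of Aim2; error bars are SE. Aim2 sits at 0.19 at the left end, and every other plotted gene lies at 1.20 or above, up to 4.54 for Ifi205 at the right end.

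Interferons act through paired receptors, Janus kinases and STAT factors, and this pathway induces the Ifi200 genes. Of 18 tested genes of interferon signalling, a list fixed with earlier results known, 12 rose and 0 fell in Plcg2-/- libraries (limma, adjusted over all genes, with 0 lower at an unadjusted p below 0.05). Of all genes tested, 15.6% rose and 5.31% fell. The median log2 fold change of the list was 0.80, against 0.19 over all genes. Stat2, a subunit of ISGF3, averaged 330 ± 65.5 and 95.6 ± 24.9 TPM in Plcg2-/- and Plcg2+/+ libraries (limma adjusted p = 0.00343). Irf1, an interferon-induced transcription factor, averaged 134 ± 15.9 TPM in Plcg2-/- and 43.5 ± 1.78 TPM in Plcg2+/+ libraries (limma adjusted p = 0.000922). Usp18, which removes ISG15 and restrains type I receptor signalling, averaged 125 ± 23.8 TPM in Plcg2-/- and 27.8 ± 4.85 TPM in Plcg2+/+ libraries (limma adjusted p = 0.00111). These 3 genes were higher in 3 of 3 Plcg2-/- libraries, by log2 fold changes of 1.79, 1.59 and 2.13. The receptor genes Ifnar1, Ifnar2 and Ifngr2, as well as Irf3, Irf8 and Socs3, were not called. Ifnb1, the gene of interferon beta, was listed at 1.916, 2.902 and 0.6517 TPM in Plcg2-/- libraries, against 0, 0.1988 and 0.1441 TPM in Plcg2+/+ libraries, and its mean was too low for the test.

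Of 19 genes of DNA sensing, 8 rose and 1 fell in Plcg2-/- libraries, where 15.6% of all genes tested rose and 5.31% fell. Their median log2 fold change was 0.36, against 0.19 over all genes. Cgas, the enzyme that makes the messenger cGAMP on DNA, averaged 12.7 ± 0.409 TPM in Plcg2-/- and 6.37 ± 0.545 TPM in Plcg2+/+ libraries (log2 fold change 0.90 ± 0.12 SE, limma adjusted p = 0.00381). Zbp1, a sensor of Z-form nucleic acids, averaged 326 ± 69.4 and 51.2 ± 20.7 TPM in Plcg2-/- and Plcg2+/+ libraries (2.72 ± 0.34 SE, limma adjusted p = 0.00323). Tlr9, the endosomal receptor for CpG DNA, averaged 27.4 ± 5.18 TPM in Plcg2-/- and 6.40 ± 0.738 TPM in Plcg2+/+ libraries (log2 fold change 1.93, limma adjusted p = 0.00104). Samhd1, which degrades deoxynucleotides, averaged 530 ± 83.5 TPM in Plcg2-/- and 208 ± 21.9 TPM in Plcg2+/+ libraries (log2 fold change 1.34 ± 0.15 SE, limma adjusted p = 0.00251). Each of the 4 was higher in all 3 Plcg2-/- libraries. Sting1 and Tbk1, which relay the signal from cGAMP, had log2 fold changes of 0.41 and 0.36 and were not called (limma adjusted p = 0.0811 and 0.0668). The gene that fell, named after its values were seen, was Dnase2a, a lysosomal nuclease, which averaged 113 ± 12.2 TPM in Plcg2-/- libraries, against 164 ± 13.8 TPM in Plcg2+/+ libraries (log2 fold change -0.54, limma adjusted p = 0.0262). Its call was lost when any library except Plcg2-/- replicate 2 was left out, with adjusted p between 0.0518 and 0.101.

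**Figure D5:**
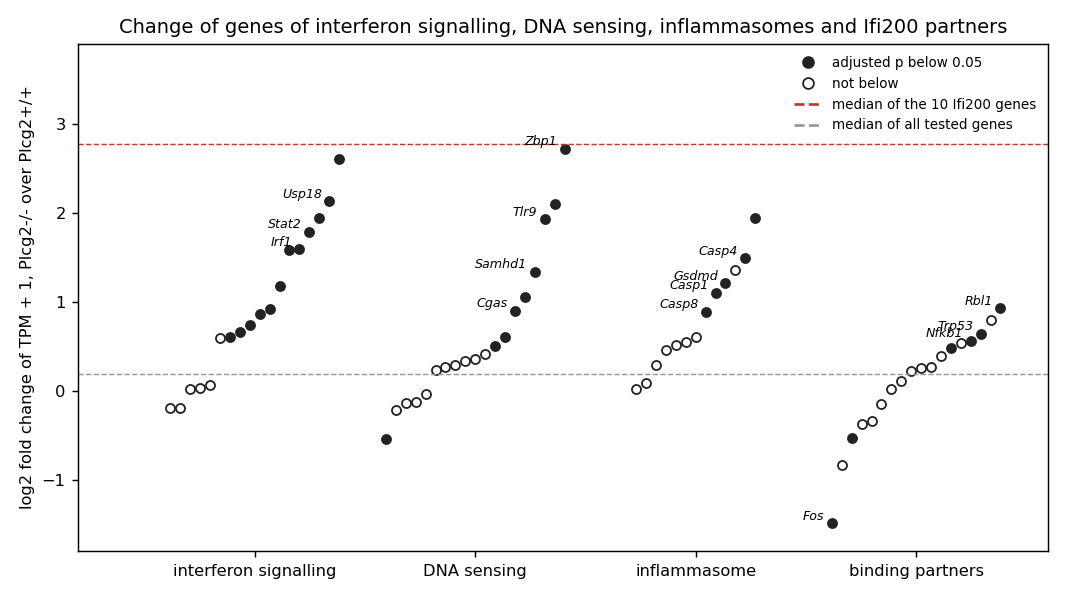
Log2 fold change of TPM + 1, Plcg2-/- over Plcg2+/+, of the tested genes of 4 lists, filled where the limma adjusted p is below 0.05; dashed lines mark the median of the 10 members, 2.78, and of all genes, 0.19. Of the interferon signalling genes 12 are filled, and Zbp1, at 2.72, lies closest to the members' median.

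Inflammasomes are complexes that activate caspase-1, and those built on pyrin-domain sensors do so by recruiting ASC. Of 13 tested inflammasome genes, 5 rose and 0 fell in Plcg2-/- libraries (limma, with 0 lower at an unadjusted p below 0.05), where 15.6% of all genes tested rose and 5.31% fell. Their median log2 fold change was 0.60, against 0.19 over all genes. Casp1 averaged 148 ± 8.77 TPM in Plcg2-/- and 68.4 ± 4.18 TPM in Plcg2+/+ libraries (limma adjusted p = 0.00141). Casp4, the caspase that binds bacterial lipopolysaccharide, averaged 83.1 ± 7.23 TPM in Plcg2-/- and 28.9 ± 2.79 TPM in Plcg2+/+ libraries (limma adjusted p = 0.00096). Gsdmd, the pore-forming substrate of these caspases, averaged 319 ± 30.4 TPM in Plcg2-/- and 138 ± 11.5 TPM in Plcg2+/+ libraries (limma adjusted p = 0.00166). Their log2 fold changes were 1.10, 1.49 and 1.21, and each was higher in all 3 Plcg2-/- libraries. Casp8 had a log2 fold change of 0.89 (limma adjusted p = 0.0165), and lost its call without Plcg2-/- replicate 1 or 3 or Plcg2+/+ replicate 1 or 2, with p between 0.0515 and 0.0778. Il1b, named after its values were seen, had a log2 fold change of 1.94 by limma with an adjusted p of 0.0361. Its call was lost with the pairs as a replicate block (limma adjusted p = 0.0502), with median-of-ratios scaling (0.0555), with no filter (0.0935), and without Plcg2+/+ replicate 1 or any single Plcg2-/- library (0.0683 to 0.118). The count of inflammasome genes that rose was 3 without Plcg2-/- replicate 1, Plcg2-/- replicate 3 or Plcg2+/+ replicate 1. Pycard, which encodes ASC, averaged 75.1 ± 8.97 TPM in Plcg2-/- and 74.6 ± 15.0 TPM in Plcg2+/+ libraries (log2 fold change 0.02, limma adjusted p = 0.94).

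Of 18 genes for proteins reported to bind Ifi200 proteins, 4 rose and 2 fell in Plcg2-/- libraries, where 15.6% of all genes tested rose and 5.31% fell. The median log2 fold change was 0.24, against 0.19 over all genes. Fos, a subunit of AP-1, fell to 6.69 ± 0.788 TPM in Plcg2-/- libraries, against 20.6 ± 0.405 TPM in Plcg2+/+ libraries (log2 fold change -1.49 ± 0.12 SE, limma adjusted p = 0.00096, lower in 3 of 3). Trp53, which encodes p53, averaged 75.3 ± 1.41 TPM in Plcg2-/- and 48.3 ± 5.52 TPM in Plcg2+/+ libraries (log2 fold change 0.64, limma adjusted p = 0.0123). Nfkb1 and Rbl1 had log2 fold changes of 0.56 and 0.93 (limma adjusted p = 0.0222 and 0.023). Rela, which rose, and Id2, which fell, were named after their values were seen. Their log2 fold changes were 0.48 and -0.53 (limma adjusted p = 0.0328 and 0.0376). The count of genes that rose was 0 without Plcg2-/- replicate 1, 1 without Plcg2-/- replicate 3 or Plcg2+/+ replicate 1, 2 without Plcg2+/+ replicate 2, and 2 with median-of-ratios scaling. The count that fell was 1 without Plcg2-/- replicate 1 or any single Plcg2+/+ library, and Fos is the gene of this list whose call was lost under none of the alternatives tried.

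The genes whose pattern over the 6 libraries was most like the mean of the members were Pml, Cmpk2, Znfx1, Usp18 and Ifit3, out of 9254 other genes with a mean of at least 5 TPM. Likeness was measured as Pearson's r of log2(TPM + 1) with the mean of the members' standardised values, and r was 0.9997, 0.9993, 0.9992, 0.9988 and 0.9987. The 6 libraries fall into 2 genotypes, so these values mostly describe the difference between them. Pml, which scaffolds nuclear bodies, had 59.39, 49.57 and 45.64 TPM in Plcg2-/- libraries, against 17.12, 13.17 and 14.57 TPM in Plcg2+/+ libraries. Ifit3, an antiviral protein that interferon induces, had 830.5, 643.3 and 534.7 TPM in Plcg2-/- libraries, against 68.29, 39.16 and 58.91 TPM in Plcg2+/+ libraries. Both had their highest value of each genotype in replicate 1, as 9 members did in Plcg2-/- and 7 in Plcg2+/+ libraries.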

How the data were processed

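The authors deposited TPM per gene, 1 column per library. The tools named per the submitters' processing notes are R 4.0.4, DESeq2 1.30.1 and Salmon 1.3.0, and the build is GRCm38.p6; the sources used here do not give the annotation release. Depth cannot be read from TPM, and reads without molecular identifiers are not independent molecules. The members, gene lists and tests were chosen with earlier results of these data known.

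The 12652 genes with a mean of at least 1 TPM were fitted on log2(TPM + 1) by genotype by limma (3.58.1, R 4.3.3) in a two-sided test with a prior variance that follows the mean and Benjamini-Hochberg adjustment over all genes tested. A call is an adjusted p below 0.05. The fit was tested on simulated data. GENCODE M21 held 54094 of the 54347 rows. Tables were handled in numpy 2.4.6 and pandas 2.3.3 under Python 3.11.15; matplotlib 3.10.9 drew the plots.

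Named genes were Plcg2, the members, the other locus genes found, up to 4 genes per list with the smallest p, and the 5 genes most like the members; 1 gene that the rule names is not reported here. Replicate numbers come from the titles. Deviations of same-numbered libraries from the genotype means correlated at 0.295, 0.193 and 0.147, all over the limit of 0.1, and the libraries were treated as paired by number in the alternative with a replicate block; the main fit has no block. A planned comparison of protein sequences was replaced by the share of 31-base words between transcripts, chosen after the data were seen.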

Additional observations from a re-analysis of the deposited data

How the results depend on the processing

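All 10 members kept a positive log2 fold change under every alternative tried (pseudocounts of 0.1 and 0.5, no filter, a mean of at least 5 TPM, median-of-ratios scaling, replicate block, each library left out), except that Ifi214 gave no value at a mean of at least 5 TPM. Their median was 2.57 with median-of-ratios scaling, 2.78 with the replicate block and 2.51 to 2.95 with a library left out. In each of these 10 were called higher, which follows from the way the list was made, and nothing is read from it. Counts over all 12652 genes tested under the same settings are given next to the following results. The smallest member value was 0.99, for Ifi207 with median-of-ratios scaling, and Ifi214 was 3.27 with a pseudocount of 0.1 and 2.59 with 0.5. Over all genes, 1971 were called higher and 672 lower. Calls higher were 1226 with no filter, 975 with median-of-ratios scaling (993 lower, so the split between directions changed), 2483 with the replicate block (815 lower), and 559 (without Plcg2-/- replicate 1) to 2106 with a library left out, where calls lower were 276 to 644. Other locus genes called higher were 1 at a mean of at least 5 TPM, since Ifi203-ps was not tested there. With a library left out, DNA sensing genes called lower were 0 to 1, inflammasome genes called higher 3 to 7, and genes of binding partners called higher 0 to 4 and lower 1 to 2. Genes of binding partners called higher were 2 with no filter and 2 with median-of-ratios scaling, and called lower were 1 with no filter. The log2 fold change of Aim2 was -0.02 with median-of-ratios scaling, where the median of all genes fell to -0.0045. The cause of the other changes was not tested. Among the named genes the replicate block ended the call of Il1b alone. TPM limits these results, because depth is unknown and counts could not be modelled, and because members of similar sequence may exchange reads.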
